A study of Mus musculus with 6 samples.

Results

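The 2670 regions described here were promoters at which an ATAC-seq peak was called in a mouse insulinoma cell line and in neither of the other cell lines of the series. They were chosen by merging every deposited peak of the 3 lines on chromosomes 1 to 19 into 34742 intervals, wherever peaks shared at least 1 bp. Of the 10533 intervals that lay within 1 kb of the start of a protein-coding transcript, those that held an insulinoma peak and no peak of another line were kept. They made up 28.2% of the 9460 promoter intervals of this line (95% Wilson interval 27.3 to 29.1) and 15.4% of its 17349 unshared intervals. ATAC-seq marks accessible DNA by the insertion of sequencing adapters with the Tn5 transposase.

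Open chromatin was compared among 3 mouse lines that differ in the activity of Pax6, a transcription factor gene of eye, brain and endocrine pancreas. Pax6-HIGH cells were the insulinoma line β-TC3, Pax6-ON cells the lens epithelial line MV+, and Pax6-OFF cells the renal adenocarcinoma line RAG. All were grown in the same medium without a treatment, and 2 samples of each line were sequenced and pooled before peaks were called. Each line therefore gave 1 set of peaks, so no spread between samples could be computed and no test between lines was possible. Intervals given with percentages cover the counting of regions or genes only, and neighbouring regions are not independent samples. β-TC lines come from beta cell tumours of mice in which the insulin promoter drives the large T antigen of simian virus, and each line here stands for 1 established culture. The pooled input held 100254099 fragments for Pax6-HIGH, 130955836 for Pax6-ON and 102223606 for Pax6-OFF, yet 27172, 9418 and 13394 peaks were called on the chromosomes used. Nuclei of Pax6-ON cells were prepared with more detergent than those of the other lines, so that this step and the cell line cannot be told apart.

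Promoters of genes used in every cell usually lie in CpG islands, stretches rich in CG dinucleotides that stay free of DNA methylation and of stable nucleosomes in most tissues. Promoters of genes used in few cell types more often lack such islands and are opened by factors of that cell type. Pancreatic beta cells store insulin in dense-core granules and release it when glucose metabolism closes potassium channels and lets calcium in, with an exocytosis machinery that neurons share.

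The following stretches are shown because they stand for the kinds of gene found among these promoters. Each is the 150 bases upstream of the most upstream annotated start inside the interval, from the mouse assembly NCBIM37 (mm9), written 5′ to 3′ on the strand of the gene. For each of the 4 islet gene lists, the neuronal list and the cytosolic ribosomal proteins, it belongs to the strongest member whose upstream bases were all inside the interval and free of annotated exons. Capitals mark matches on either strand to 19 short motifs that were searched.
G6pc2 (chr2:69057878-69058027, plus strand): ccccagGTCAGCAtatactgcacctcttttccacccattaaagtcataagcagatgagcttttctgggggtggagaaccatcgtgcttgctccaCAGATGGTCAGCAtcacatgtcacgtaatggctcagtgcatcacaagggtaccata
Gcg (chr2:62321708-62321857, minus strand): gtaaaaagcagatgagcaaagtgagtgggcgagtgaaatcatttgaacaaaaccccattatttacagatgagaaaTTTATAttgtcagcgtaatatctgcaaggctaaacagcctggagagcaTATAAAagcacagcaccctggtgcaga
Rab3a (chr8:73278428-73278577, plus strand): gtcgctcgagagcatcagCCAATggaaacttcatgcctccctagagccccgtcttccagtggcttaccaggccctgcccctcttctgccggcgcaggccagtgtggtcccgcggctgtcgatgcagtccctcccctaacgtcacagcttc
Esrrg (chr1:189821556-189821705, plus strand): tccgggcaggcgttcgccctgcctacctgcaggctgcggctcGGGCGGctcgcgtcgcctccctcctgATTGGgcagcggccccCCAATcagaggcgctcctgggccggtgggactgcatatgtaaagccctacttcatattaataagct
Gdap1 (chr1:17135293-17135442, plus strand): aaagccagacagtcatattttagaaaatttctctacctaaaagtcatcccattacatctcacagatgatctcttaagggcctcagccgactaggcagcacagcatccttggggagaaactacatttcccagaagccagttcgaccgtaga
Rps13 (chr7:123477705-123477854, minus strand): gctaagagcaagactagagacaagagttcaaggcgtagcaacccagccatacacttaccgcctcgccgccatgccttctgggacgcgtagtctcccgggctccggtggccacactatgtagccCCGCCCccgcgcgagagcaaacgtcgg
The upstream stretch of G6pc2, an islet glucose-6-phosphatase subunit, held 2 matches to the MAF motif TGCTGAC and 1 to the NeuroD-type E-box CAGATGG. These motifs occurred in 2.27% and 2.14% of the 150-base windows upstream of all 44018 protein-coding starts. Gcg, which encodes proglucagon, held 2 matches to TATAAA, a motif found in 6.40% of those windows. Esrrg, an orphan nuclear receptor, held 1 GC box (GGGCGG, 36.1% of all windows) and 2 CCAAT motifs (23.5%), and Rab3a and Rps13 held 1 CCAAT motif and 1 GC box, respectively. CpG dinucleotides numbered 12 in Esrrg, 14 in Rps13 and 9 in Rab3a, against 2 in G6pc2, 2 in Gcg and 3 in Gdap1.

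The label of the line was checked against fixed marker genes. Of 18 beta cell markers, 8 had a Pax6-HIGH peak within 1 kb of a start, and for 4 of them (Neurod1, Nkx2-2, G6pc2 and Chga) no peak of another line did. These shares, 44.4% (24.6 to 66.3) and 22.2% (an interval that reaches from below 12.5% up to 45.2%), have intervals that include the shares over all genes, 46.4% with a Pax6-HIGH promoter peak and 12.5% with a Pax6-HIGH-only promoter, so the markers as a list did not set the line apart. Nkx6-1, Isl1 and Pcsk2 also had a promoter peak in Pax6-ON, and Mafa had one in all 3 lines. Defining beta cell genes such as Ins1, Ins2, Iapp, Slc2a2, Abcc8, Kcnj11, Slc30a8 and Pcsk1 had no promoter peak in Pax6-HIGH. The nearest Pax6-HIGH peak lay 704449 bp from Ins1 and 145715 bp from Ins2, whereas Pdx1 had one 1591 bp from its start. The alpha cell hormone gene Gcg had a Pax6-HIGH peak only. None of 8 kidney markers had a Pax6-HIGH promoter peak, and 1 of 6 lens markers, the heat shock factor gene Hsf4, did.

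In fold enrichment, the height of a peak over its background coverage, the Pax6-HIGH-only promoters were weaker than the shared ones. The background recovered from the files never fell below 11.79 fragments, and it lay at that floor, to within 0.01, at 47.5% of the Pax6-HIGH-only and 27.4% of the shared promoters. There the fold was the coverage over a constant, and elsewhere over the average of the surrounding 6250 bp. These values helped to decide the calls, so they describe the group without a test. The median fold was 3.67 at Pax6-HIGH-only promoters (quartiles 2.97 and 4.62, range 1.69 to 8.44). It was 4.61 at promoters shared with Pax6-OFF, 4.83 at those shared with Pax6-ON and 6.02 at those called in all 3 lines. The summit was covered by a median of 52 fragments, against 121 where all 3 lines had a peak, and the median peak length was 544 bp against 824 bp. The ranges overlapped widely: 457 Pax6-HIGH-only promoters (17.1%) lay above the lower quartile of the promoters common to all 3 lines, a fold of 5.03, and 175 (6.55%) lay above their median.

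**Figure D1:**
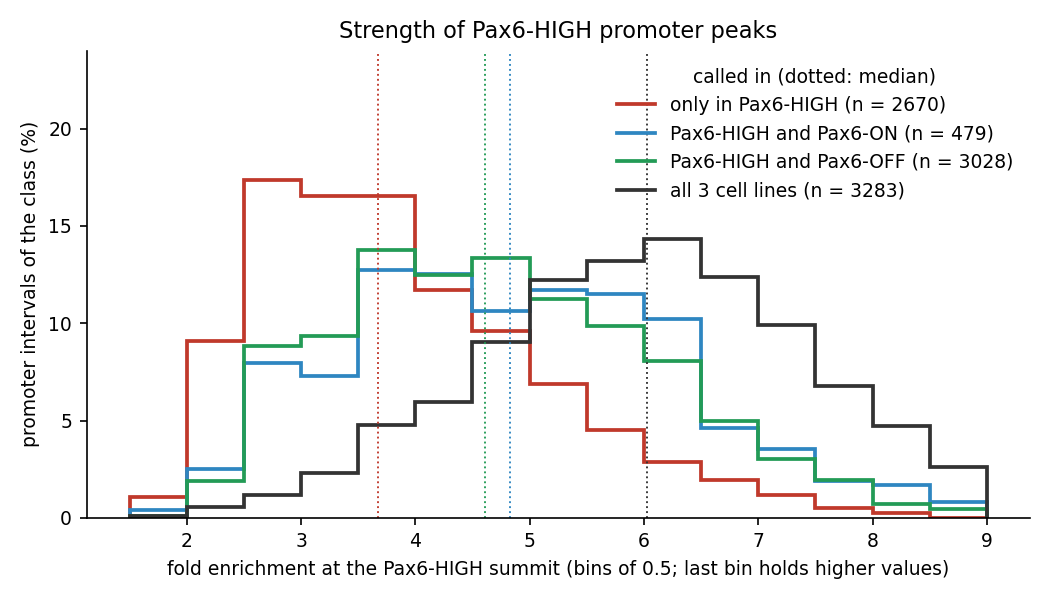
Distribution of fold enrichment of the Pax6-HIGH peak (x axis, ratio of the summit to the local background) as percent of the promoter intervals of each class (y axis), with dotted lines at the medians. The Pax6-HIGH-only promoters have the lowest median, 3.67, and those called in all 3 lines the highest, 6.02, with broad overlap.

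The share of Pax6-HIGH promoters that no other line had fell step by step with strength. It was 62.5% of the 1175 promoters with a fold under 3 (59.7 to 65.2), 46.2% from 3 to 4, 29.1% from 4 to 5, 16.2% from 5 to 6, 8.71% from 6 to 7 and 4.90% of the 1062 promoters at 7 or more (3.75 to 6.36). The fall held within both classes of base composition. Among CpG-rich promoters, with a GC content of at least 50% and a CpG observed/expected ratio of at least 0.6 in the 500 bp on each side of the start, the share went from 55.0% under a fold of 3 to 2.50% at 7 or more. Among the others it went from 74.8% to 20.4%, and it was the higher of the pair in every band of strength.

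**Figure D2:**
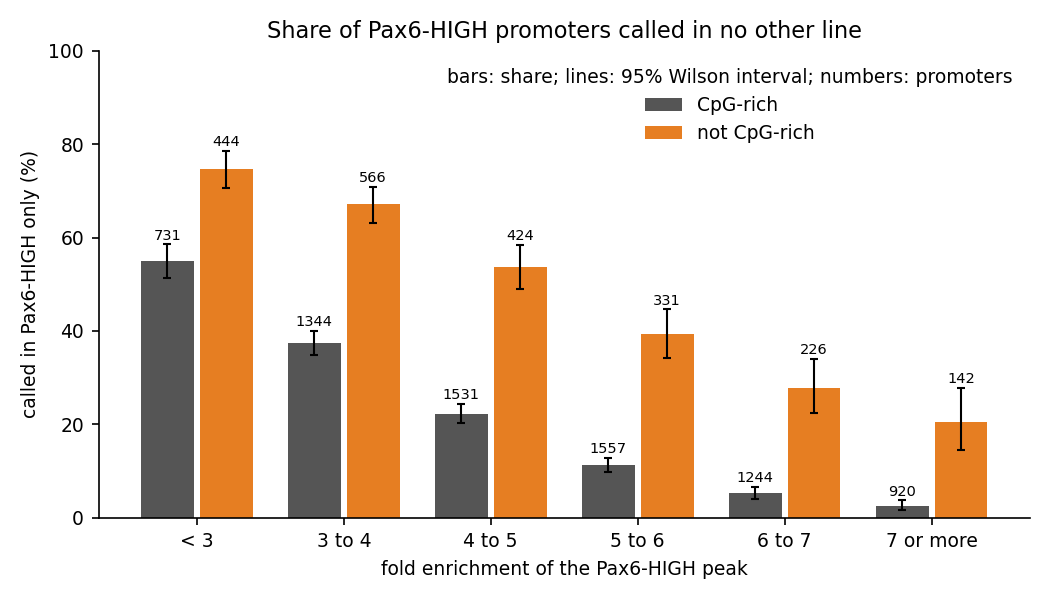
Percent of Pax6-HIGH promoters called in no other line (y axis) by band of fold enrichment (x axis), for CpG-rich promoters (grey) and the others (orange). Lines are 95% Wilson intervals and the numbers above the bars count promoters, and the share falls from 55.0% to 2.50% in CpG-rich promoters and from 74.8% to 20.4% in the others.

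The reach of the calls in the other lines was put in numbers from the peak heights. At the 3283 promoters called in all 3 lines, the summit coverage in Pax6-ON was a median of 0.572 of that in Pax6-HIGH (quartiles 0.421 and 0.802), and in Pax6-OFF 0.609 (0.426 and 0.862). Multiplied by these ratios, the Pax6-HIGH coverage fell below the 5th percentile of called promoters in Pax6-ON, 38 fragments, at 1833 promoters (68.7%), and below that in Pax6-OFF, 33 fragments, at 1438 (53.9%). All 1438 lay below both limits. The same ratios were used at every promoter, so these limits were cuts on the Pax6-HIGH coverage alone. The remaining 837 promoters (31.3%, 29.6 to 33.1) lay within the called range of both other lines and are named here as promoters within the called range. Coverage was higher on chromosome 6, with a median of 74 fragments at its 223 Pax6-HIGH-only promoters against 52 elsewhere. Of the 837, 712 lay on the other chromosomes, which held 2447 of the Pax6-HIGH-only promoters. The share was 32.0% for CpG-rich promoters and 30.6% for the others. Peak tables give no coverage where no peak was called, so a promoter without a peak in Pax6-ON or Pax6-OFF was not shown to be closed there.

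The 10 promoters with the highest fold came from several kinds of gene and only the first from the islet lists. Chgb, which encodes the granule protein chromogranin B, led with a fold of 8.44 and 150 fragments at chr2:132606966-132607775, and the nearest peak of another line was 33820 bp away. The promoter of Mcm10, a replication initiation factor, had a fold of 8.29 and 149 fragments at chr2:4933374-4934024. Tdrkh, a Tudor domain gene of the piRNA pathway, had 8.29 and 133 fragments, and Phactr2, a regulator of protein phosphatase and actin, had 8.26 and 142. Cdkn2a, which encodes the INK4A and ARF tumour suppressors, had a fold of 8.16 and 132 fragments at chr4:88927660-88928506, and the nearest peak of another line was 11984 bp away. Whether the other lines hold this DNA was not tested for any of these regions. The others were 4930455F23Rik (8.13), Alkbh6 (8.05), Golph3l (7.82), Efcab1 (7.75) and the DNA helicase gene Blm (7.74). Of the 10, Tdrkh and Blm were CpG-rich, and the group of 175 promoters above the median of the common ones was CpG-rich in 48.6% (41.3 to 55.9). The 3 lowest were Nol4 (1.69), Wasf1 (1.72) and Ppp3ca (1.75), all CpG-rich, with summits in introns and a peak of another line 1066, 516 and 615 bp away.

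The Pax6-HIGH-only promoters belonged to 2672 genes, 12.5% of the 21410 protein-coding genes on these chromosomes and 26.9% of the 9926 genes with any Pax6-HIGH promoter peak. Of the 2672 genes, 378 (14.1%) also had a start within 1 kb of an interval with a peak of Pax6-ON or Pax6-OFF. Whether this was the same start or another one was not separated. Of the 161 genes on 4 islet lists, 55 had a Pax6-HIGH-only promoter, 34.2% (27.3 to 41.8), and 29 had a Pax6-HIGH promoter peak that was shared only. Among the 84 with any Pax6-HIGH promoter peak the share was 65.5% (54.8 to 74.8), beside the 26.9% of all such genes. With the same number of peaks taken from each line, 26 of the 161 islet genes (16.1%, 11.3 to 22.6) and 984 of all genes (4.60%) had a Pax6-HIGH-only promoter, at 935 intervals. The islet genes made up 55 of 2672 genes, so most of the group lay outside these lists. The strongest promoter was within the called range for 29 of the 55 (52.7%, 39.8 to 65.3), against 31.8% of all 2672 genes. This compares the coverage of Pax6-HIGH peaks and holds no value of the other lines.

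**Figure D3:**
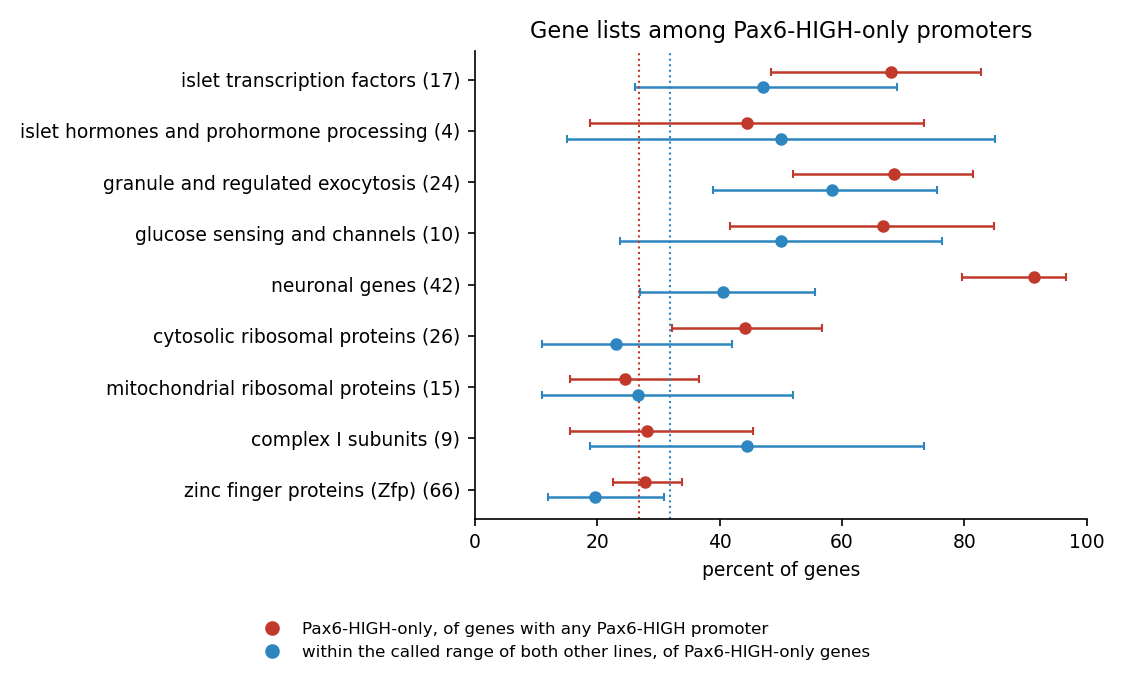
Red points give the percent of genes with any Pax6-HIGH promoter peak that had a Pax6-HIGH-only promoter, and blue points the percent of these whose strongest such promoter was within the called range of both other lines (x axis), for each gene list (y axis, number of Pax6-HIGH-only genes in brackets). Bars are 95% Wilson intervals and dotted lines the values over all genes, 26.9% and 31.8%, and, of the 9 lists shown, the red intervals of 3 islet lists, the neuronal list and the cytosolic ribosomal proteins lie wholly above 26.9%.

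Of 42 islet transcription factors, 17 had a Pax6-HIGH-only promoter and 8 had shared ones only. Esrrg was highest with a fold of 6.33 and 136 fragments at chr1:189821314-189822133. It was followed by Onecut2 (5.96), a liver and pancreas factor, and by Neurod1, which drives endocrine differentiation, with a fold of 5.01 and 181 fragments at chr2:79296728-79297360. Then came Irx1 (4.96), Gata6 (4.67), St18 (4.60) and Foxa2 (4.32), a pioneer factor of endoderm. Etv1, Glis3, Pax6, Meis2, Irx2, Ldb1 and Sox4 had folds between 1.93 and 4.12 and also a start within 1 kb of a peak of another line. The remaining members were Rfx6 (3.73), a factor needed for islet formation, Nkx2-2 (3.58) and Hopx (2.50). Pax6 itself entered by 1 promoter with a fold of 3.30 and 55 fragments at chr2:105508327-105509066, 6404 bp from the nearest peak of another line. The factors with shared promoters only included Nkx6-1 (Pax6-HIGH fold 7.02), Mafa (6.77) and Prox1 (2.63).

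The granule and regulated exocytosis list held the strongest islet promoters. Of 51 genes, 24 had a Pax6-HIGH-only promoter, 68.6% of the 35 with any Pax6-HIGH promoter peak (52.0 to 81.4), and their median fold was 4.48. Besides Chgb, the vesicle GTPase gene Rab3a had a fold of 7.07 at chr8:73278343-73278852. Erc2 (6.80), an active zone scaffold, Syt4 (6.56), a synaptotagmin, and Rab3c (6.52) also exceeded the median of the promoters common to all 3 lines. Syn2 (5.99), Syt11 (5.32), Scg3 (4.93), Cadps (4.72), Ptprn (4.61) and Syt9 (4.49) lay between that median and the list's own. The 12 others were Cplx1, Sez6l2, Syt5, Rims2, Syt13, Unc13a, Snap25, Chga, Rph3al, Ptprn2, Nsf and Rab27a, with folds from 4.47 down to 2.35. None of the 24 genes had any start within 1 kb of a peak of Pax6-ON or Pax6-OFF, and 14 had their strongest promoter within the called range.

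Of 24 genes for hormones and prohormone processing, 4 were members, 16.7% (6.68 to 35.9) beside 12.5% of all genes, or 44.4% of the 9 with any Pax6-HIGH promoter peak (18.9 to 73.3) beside 26.9%, and both intervals include the background. Gcg had a fold of 5.73 and 220 fragments at chr2:62321367-62321973, with the nearest peak of another line 132648 bp away. Scg5 (5.14), which encodes the chaperone of a prohormone convertase, had 91 fragments, Vgf (2.86), a granin, had 42 and Adcyap1 (2.15), a neuropeptide gene, had 32. Of 44 genes for glucose sensing and channels, 10 were members, 22.7% (12.8 to 37.0), or 66.7% of the 15 with any Pax6-HIGH promoter peak (41.7 to 84.8). G6pc2 led with 6.18 and 78 fragments at chr2:69057675-69058090, followed by the sodium and calcium exchanger gene Slc24a2 (5.98) and the sodium channel gene Scn9a (5.64). The others were Kcnh6, Npy1r, Gpr158, Prlr, Slc16a10, Kcnk3 and Ryr2, with folds from 4.14 to 3.12.

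**Figure D4:**
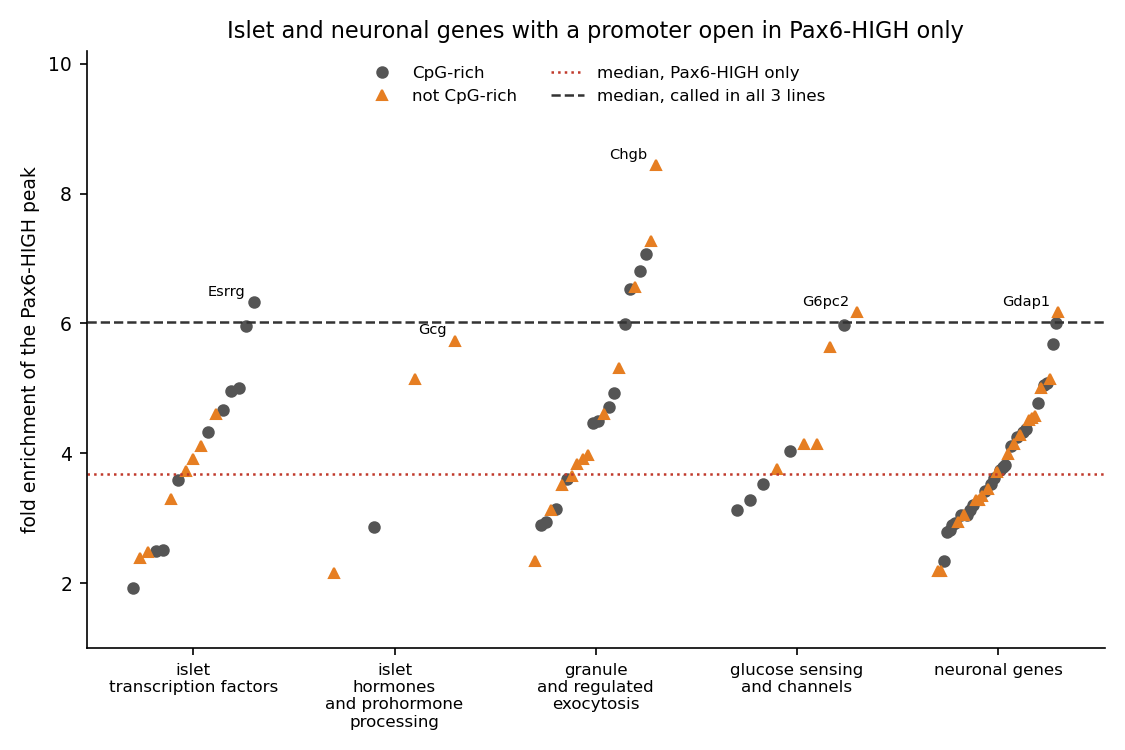
Fold enrichment of the strongest Pax6-HIGH-only promoter of each listed gene (y axis), by list (x axis) and ordered by value, with circles for CpG-rich and triangles for other promoters. The dotted line is the median of all Pax6-HIGH-only promoters, 3.67, the dashed line that of promoters called in all 3 lines, 6.02, and the strongest gene of each list is named.

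A neuronal list, made of genes of which many are silenced outside neurons and endocrine cells by the repressor REST, had the highest share. Binding of REST was not measured. Of 74 genes, 42 had a Pax6-HIGH-only promoter, 56.8% (45.4 to 67.4), and these were 91.3% of the 46 with any Pax6-HIGH promoter peak (79.7 to 96.6). Gdap1 (6.17), a mitochondrial outer membrane gene, Unc80 (151 fragments), a subunit of a sodium leak channel, Elavl4 (5.69), a neuronal RNA-binding protein, and Nova2 (5.14), a neuronal splicing factor, were strongest. The median fold of the 42 was 3.73, close to that of all Pax6-HIGH-only promoters, and 17 (40.5%, 27.0 to 55.5) had their strongest promoter within the called range. Of the 42, 24 were CpG-rich, and 2 also had a start within 1 kb of a peak of another line.

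Genes of other tissues were few. Of 35 lens and eye genes, 4 were members, with Hsf4 (4.84), the crystallin genes Cryba2 (4.80) and Crybb3 (3.05), and Lhx2 (2.89). Of 34 kidney genes, 3 were members (Gatm, 3.52; Aqp1, 3.16; Cdh6, 2.57), and of 27 genes of other pancreas cells only the duct gene Cftr was, with a fold of 2.43. These shares were 11.4%, 8.82% and 3.70%, at or below the 12.5% of all genes. Of the genes with any Pax6-HIGH promoter peak, however, the members were 4 of 7 lens and eye genes (57.1%, an interval that includes 26.9%), 3 of 4 kidney genes (75.0%, 30.1 to 95.4) and the single gene of other pancreas cells. On that basis, with the 26.9% of all such genes as background, the intervals of the lens and kidney shares include the 65.5% of the islet lists.

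Genes that every cell uses were also present. These families were picked by symbol after the peaks were read. Of 72 cytosolic ribosomal protein genes, 26 had a Pax6-HIGH-only promoter, 36.1% (26.0 to 47.6), or 44.1% of the 59 with any Pax6-HIGH promoter peak (32.2 to 56.7). Of the 26, 25 were CpG-rich, the median fold was 3.79, the highest was Rps13 (6.06), and 6 (23.1%) lay within the called range. The matching share of genes with any Pax6-HIGH promoter peak was 24.6% for mitochondrial ribosomal proteins, 28.1% for complex I subunits, 16.1% for proteasome subunits and 27.8% for zinc finger genes named Zfp, close to or below the 26.9% of all genes. Of 1081 olfactory receptor genes, 14 (1.30%) were members, beside 12.5% of all genes. They were all of the 14 with any Pax6-HIGH promoter peak (100%, 78.5 to 100), the highest such share among these families. None of them was CpG-rich or within the called range, and their folds ran from 2.11 to 3.18.

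Base composition set the group apart from shared promoters, although not as a group without CpG islands. The nearest start was CpG-rich at 56.5% of Pax6-HIGH-only promoters (54.6 to 58.3), against 86.3% of those shared with Pax6-OFF, 68.9% of those shared with Pax6-ON and 87.6% of those called in all 3 lines. The share was 66.5% at the 660 promoters called only in Pax6-OFF, 53.5% at the 282 called only in Pax6-ON and 44.4% over all protein-coding starts. The median CpG observed/expected ratio was 0.657, beside 0.794 where all 3 lines had a peak.

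**Figure D5:**
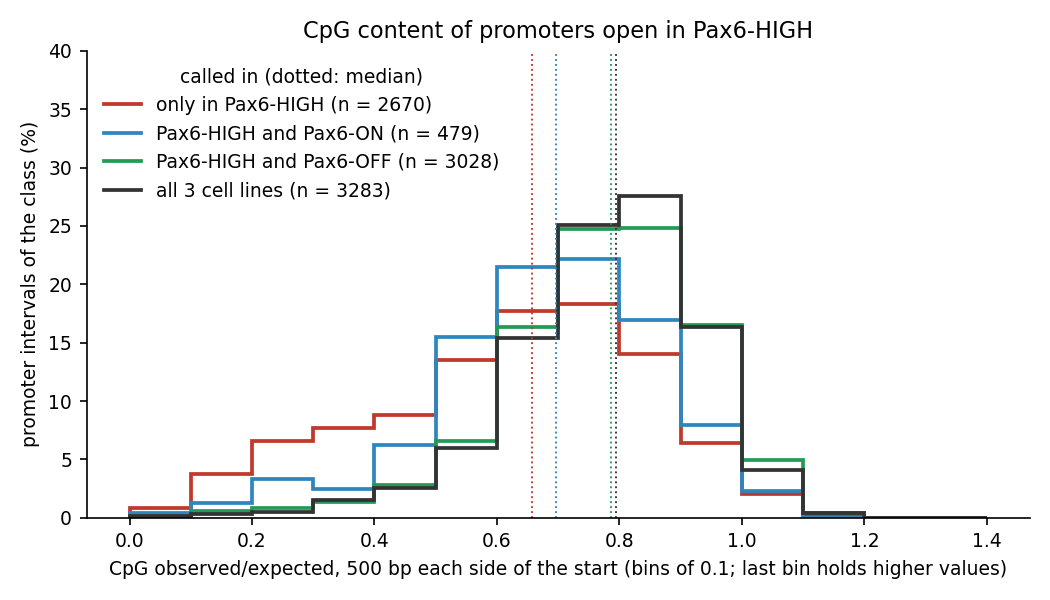
CpG observed/expected ratio in the 500 bp on each side of the nearest start (x axis) as percent of the promoter intervals of each class (y axis), with dotted lines at the medians. The Pax6-HIGH-only promoters spread further to low ratios, with a median of 0.657 against 0.794 for promoters called in all 3 lines.

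The summits also lay less often close to the start. The summit was within 500 bp of the nearest start at 84.5% of Pax6-HIGH-only promoters against 94.3% of shared ones. The annotated start was inside the interval at 76.6% against 96.0%. Shared intervals, however, joined peaks of several lines, and the median length of their Pax6-HIGH peaks was 774 bp against 544 bp. A wider interval reaches more starts, and the part of width in this share was not tested. Summits fell in introns at 24.8% and in coding exons at 9.14%, against 14.2% and 4.82% of shared promoters. Starts of at least 2 genes were within reach at 7.38% of the intervals against 14.0%, a share with the same limit of width. A Pax6-HIGH-only interval away from any start lay within 50 kb of 50.1% of the Pax6-HIGH-only promoters (48.2 to 52.0) and of 40.2% of the shared ones (39.0 to 41.4).

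Motifs were searched in the 201 bp centred on each summit, on both strands, with the share over all 9460 Pax6-HIGH promoters as the background. Motifs common in CpG islands were rarer in Pax6-HIGH-only than in shared promoters: the GC box GGGCGG at 48.8% against 70.6% (all, 64.5%), CCAAT at 24.3% against 35.5% (32.3%), the CTCF core AGGGGGCG, which can overlap a GC box, at 5.73% against 11.1% (9.57%), and the NRF1 motif GCGCATGCG at 1.31% against 3.52% (2.90%). Among the promoters that were not CpG-rich, the GC box was at 32.3% against 52.9% and CCAAT at 27.4% against 38.0%. Base composition was not matched within this class. The median GC content of its searched windows was 58.2% against 61.7%, and the median CpG observed/expected ratio 0.493 against 0.639. The MAF motif TGCTGAC was at 4.31% against 2.21% (2.80%). It was at 2.12% against 1.96% in CpG-rich promoters and at 7.14% against 3.71% in the others. Other differences varied between the classes of base composition. The ETS motif CCGGAAG was at 11.3% against 14.8% (13.8%). It was at 14.8% against 15.5% in CpG-rich promoters and at 6.71% against 10.3% in the others. The RFX motif GTTGCCATG was at 0.824% against 0.530% (0.613%). It was at 0.332% against 0.533% in CpG-rich promoters. In the others it was at 1.46% against 0.515%, from 17 and 5 promoters. The homeodomain motif TAATTA was at 1.35% against 0.471% (0.719%), and at 0.663% against 0.275% in CpG-rich promoters and 2.24% against 1.65% in the others. The NeuroD-type E-box CAGATGG was at 3.07% against 1.94% (2.26%), but at 1.53% against 1.72% in CpG-rich promoters and 5.08% against 3.30% in the others. The AP-1 motif TGANTCA was at 4.61% against 2.61% (3.17%), and at 2.79% against 2.06% in CpG-rich promoters and 6.97% against 5.87% in the others. A PAX6 paired domain core, TTCACGC, was at 0.936% against 1.52% (1.35%), and at 1.26% against 1.53% in CpG-rich promoters and 0.516% against 1.44% in the others. A match is a run of letters in the reference and does not show binding.

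The edges of the rule were populated by ordinary cases. Neurog2 (fold 3.52) and Dtx2 (3.99) entered with a start 997 and 996 bp from the interval, while Id3 (3.16) and Gm16484 (4.19) stayed outside at 1005 and 1008 bp. At Rap1b (2.35) and Mafg (2.27) the nearest peak of another line began 13 and 17 bp away. Frzb (2.96), with a 16 bp overlap with a Pax6-ON peak, and Hist1h1d (3.36), with a 43 bp overlap with a Pax6-OFF peak, counted as shared. A peak of another line lay within 1 kb of 141 Pax6-HIGH-only promoters (5.28%) and within 50 kb of 1670 (62.5%). The weakest calls, at D630003M21Rik and Vmn1r30, had 25 fragments and a −log10 q-value of 1.40.

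The background coverage of the Pax6-HIGH library differed between chromosomes. On chromosome 6 the median background at Pax6-HIGH-only promoters was 19.6 fragments, against 11.8, the floor, elsewhere, and the median fold was 3.33 against 3.69. There 37.3% of Pax6-HIGH promoters (33.5 to 41.2) were Pax6-HIGH-only, against 27.6% elsewhere (26.7 to 28.6), and over single chromosomes the share ran from 16.1% on chromosome 17 to 37.4% on chromosome 3. The part of copy number in these values was not tested. Of the 55 islet genes with a Pax6-HIGH-only promoter, 54 remained without chromosome 6.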

How the data were processed

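ATAC-seq was done on nuclei of β-TC3 (Pax6-HIGH), MV+ (Pax6-ON) and RAG (Pax6-OFF) cells, 2 samples each. According to the submitters' processing notes, the authors trimmed reads with Trim Galore 0.4.1, aligned them with Bowtie2 2.2.6, handled alignments with SAMtools 1.6 and bedtools, and called peaks with MACS2 2.1.1. Per the file headers, MACS2 2.1.1.20160309 was run on both samples pooled, in paired-end mode, with all duplicates in its input kept, no control, a q-value cut of 0.05 and a local background over 6250 bp that did not go below a floor for the library. The deposited values used were the summit pileup, a coverage signal counted in fragments, the fold enrichment, a ratio of pileup to local background, and the −log10 q-value. A second deposited version of the same peaks was not used. Coordinates are in mm9. Raising the depth or signal-to-background of a library raises the number of peaks that pass the cut, so an uncalled region is not a measured 0.

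Peaks of the 3 lines were merged where they shared at least 1 bp and joined to GENCODE M1 starts of protein-coding transcripts within 1000 bp, in Python 3.11.15 with pandas 2.3.3, NumPy 2.4.6, SciPy 1.17.1 and Matplotlib 3.10.9. Where an interval held several Pax6-HIGH peaks, the values of the one with the highest fold were taken. The background coverage was computed as the pileup plus 1, divided by the fold, less 1. Shares have 95% Wilson intervals, which cover counting error only. Gene symbols with several identifiers were counted once in lists. Because each line had 1 pooled call, no test was made. The merging, distance and motif steps were checked on simulated data.

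The promoters, the gene lists and the 19 motifs were chosen with earlier results of these data known. Genes named were the members of the islet lists, some of which are not reported here, the 10 highest and 3 lowest folds, the cases nearest to each limit, and up to 4 per other list. Families picked by symbol, and the 2 alternatives based on the called range, were added after the peaks were read. Alternatives covered the q-value cut, equal numbers of peaks, the overlap, the distance, the choice of start, the composition window and chromosome 6.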

Additional observations from a re-analysis of the deposited data

Results flagged for a closer look

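Chromosome X lay outside the rule, and its peaks entered none of the comparisons above. There, 143 promoter intervals were called in Pax6-HIGH only, 44.5% of the 321 Pax6-HIGH promoter intervals of that chromosome (95% Wilson interval 39.2 to 50.0), beside 28.2% on chromosomes 1 to 19. They included 5 listed genes: Pou3f4, an islet transcription factor (fold 6.04, 92 fragments), the neuronal genes Bex2 (4.93, 62 fragments) and Dcx (2.50, 31 fragments), the synapsin gene Syn1 (4.77, 60 fragments) and the synaptophysin gene Syp (2.50, 31 fragments). The number of X chromosomes in each line was not analysed here.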

How the results depend on the processing

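Counts below are given where they moved by over 1.5 times, and the median fold and the CpG-rich share where they left their own 95% interval (order statistics and Wilson). With q-values below 0.01 or 0.001, 2657 and 2598 promoters were counted, 2652 and 2553 of them at summits among the 2670, and only the median fold at 0.001 left its interval (3.75). With the 9418 best-scoring peaks by q-value from each line, the number fell to 935 promoters (701 of them among the 2670), 984 genes and 26 islet genes, with a median fold of 5.38 and a CpG-rich share of 62.5%. Requiring that 50% of both peaks overlap gave 4007 promoters, 4069 genes, 59 islet genes, a median fold of 3.99 and a share of 65.3%. Counting peaks within 1 kb as shared gave 2529 promoters and a median fold of 3.75. A start inside the interval gave 2045 promoters, a median fold of 3.91 and a share of 59.8%, a limit of 500 bp gave 2418 promoters and 3.75, and a limit of 2 kb gave 3014 promoters, 3.59 and 54.0%. With 1 start per gene the share was 61.7%, and with 250 bp on each side of the start it was 64.8%. Leaving out chromosome 6 moved no value beyond these limits. Keeping only the promoters within the called range, an alternative chosen after seeing the data, left 837 promoters, 851 genes and 29 islet genes with a median fold of 5.09, and without chromosome 6 as well 712, 729 and 28, with 5.22 and a share of 59.3%.

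No paired analysis was possible because both samples of each line were pooled before peaks were called, and for the same reason no sample was left out. Scaled from Pax6-HIGH, the coverage of 68.7% of the 2670 promoters lay below the called range of Pax6-ON and of 53.9% below that of Pax6-OFF, while coverage in those lines at these promoters was not analysed here.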
